A study of Mus musculus with 6 samples.

Results

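The RNA levels of 47 genes for collagens and other extracellular matrix proteins were examined in TM4 cells, out of 55414 gene identifiers measured. The genes were taken from a list of symbols and not by their values, and all 47 symbols matched 1 identifier each. TM4 is an established line from mouse testis that stands in for Sertoli cells, which support germ cells within the testis tubules. There were 3 control libraries and 3 libraries of TM4 cells given an agent (VC). The titles point to vitamin C as the agent, but the agent field and the study design give valine, and the group is named VC here for that reason. All 6 samples share the cell line, which is a single line. No dose or time is given, and nothing states that replicates came from separate cultures, so a p-value here speaks only of how much these 6 samples vary, and that variation may be technical.

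The matrix around cells is built from collagens, which form fibrils or sheets, from laminins and nidogens, which with collagen IV and perlecan make the basement membrane, and from proteoglycans, elastic fibres and matricellular proteins, which signal to cells more than they bear load. In the testis, Sertoli cells and peritubular myoid cells lay down the basement membrane of the tubule together. Vitamin C is the cofactor of the prolyl and lysyl hydroxylases that modify procollagen in the endoplasmic reticulum, where the chaperone Hsp47, the product of Serpinh1, holds the folded chains. Lysyl oxidases then crosslink collagen and elastin outside the cell.

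No matrix gene passed the test of VC against control, and most differences were small beside the levels of the genes. A value is the deposited one, which behaved like a transcripts-per-million figure multiplied by a factor for each library. A difference is the VC mean less the control mean of log2(value + 1). Of the 47 genes, 37 reached a value of 1 in at least 3 libraries and were tested. With limma and Benjamini-Hochberg adjustment over all 13972 tested genes, 0 of the 37 had an adjusted p under 0.05, where 0.687% of all tested genes did. At an unadjusted p under 0.05 there were 9 of 37, against 17.2% of all tested genes. A second fit, limma-voom on read numbers recovered from the values, called 2 of the 37, Thbs2 higher and Serpinh1 lower, against 4.39% of all genes in that fit. The median difference of the 37 was 0.02 and that of all tested genes 0.01, with 19 of the 37 above 0. For 35 of the 37, the 95% interval of the difference lay between -0.5 and 0.5. The exceptions were Mgp and Fbln1, with 7 to 18 and 41 to 77 reads per library.

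The 3 VC values lay wholly above the 3 control values in 9 of the 37 tested genes, against 13.9% of all tested genes. They lay wholly below in 5 of the 37, against 11.6%. The genes above were Col16a1, Col6a1, Col6a2, Col8a1, Dcn, Vcan, Thbs2, Ecm1 and Fbln2. The genes below were Col1a1, Col1a2, Col3a1, Serpinh1 and Sparc. With libraries scaled to equal totals, which moved the median of all genes from 0.01 to 0.08, the same 9 genes and 2 others lay above, and Serpinh1 alone lay below. On that scale 25.8% of all tested genes lay above and 4.602% below. Col1a1, Col1a2, Col3a1 and Sparc were thus separated on the deposited scale and overlapped with equal totals. These counts, and those without control replicate 3 below, were added after seeing the data.

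**Figure D1:**
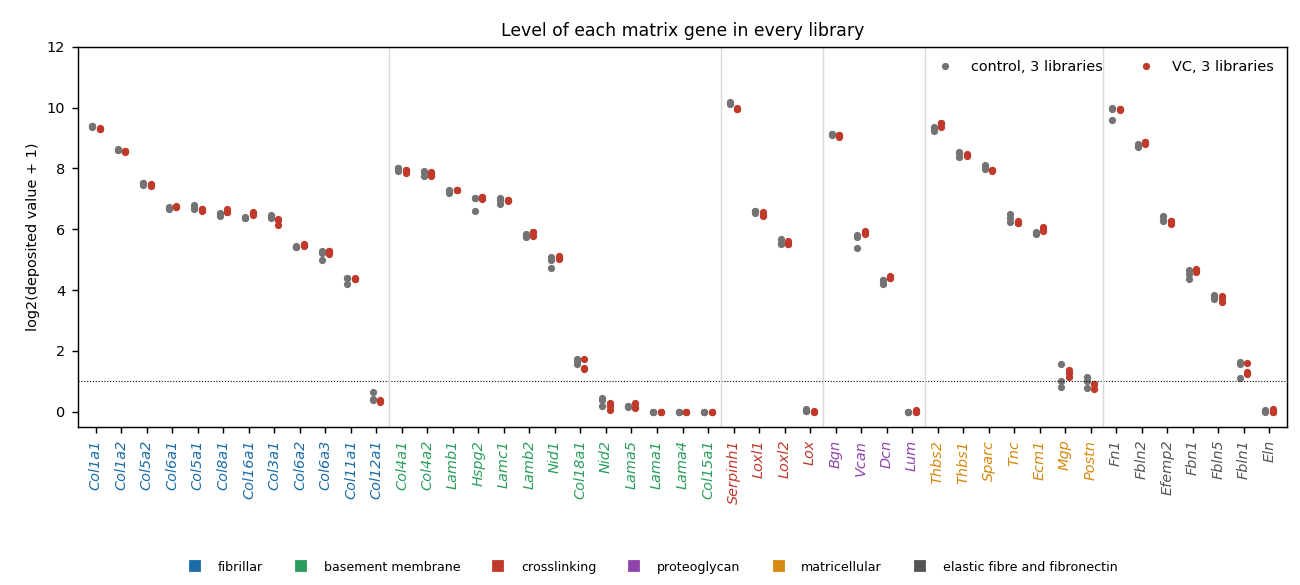
Level of each of the 47 matrix genes in every library, as log2(deposited value + 1) on the vertical axis. Grey points are the 3 control and red points the 3 VC libraries, genes are grouped by class, and the dotted line marks a value of 1; Serpinh1 and Fn1 stand highest, 9 genes stay at or near 0 in both groups, and Postn, also below the filter, lies around the dotted line.

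Single values of the matrix genes ran from 0 to 1171. The 47 genes together summed to 7756, 7548 and 7297 in the controls and to 7380, 7391 and 7621 in VC, so the groups overlapped. As a share of each library's total this was 0.735% ± 0.041 in control and 0.766% ± 0.021 in VC (SD, n = 3). The highest levels belonged to Serpinh1, Fn1, Thbs2, Col1a1, Bgn and Fbln2. Library depth was 20408425 to 22316856 recovered reads, and the genes above a value of 10 had between 603 and 94047 reads in each library.

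Control replicate 3 stood apart from the other libraries, and it did so in these genes. Compared with any other library, its reads gave a chi-square of 9.57 to 17.2 per degree of freedom, where the pairs that left it out gave 2.78 to 7.28. Among tested genes with at least 6000 bases of annotated exon, a length chosen after the values were seen, control replicate 3 lay below both other controls in 17 of 27 matrix genes and in 68.1% of all genes. Among shorter genes this was so for 0 of 10 matrix genes and 28.4% of all genes. Across the 37 genes, which are not independent replicates, its deviation from the other controls went with exon length at Pearson's r of -0.501 (log length) and Spearman's rho of -0.586. The same description over 13772 genes gave -0.121 and -0.329. The part of this library in each difference below was not tested beyond leaving it out. Without it, 16 of the 37 differences were above 0, the median was -0.03, and VC lay wholly above control in the same 9 genes (19.9% of all tested genes) and wholly below in 12 (17.3%).

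**Figure D2:**
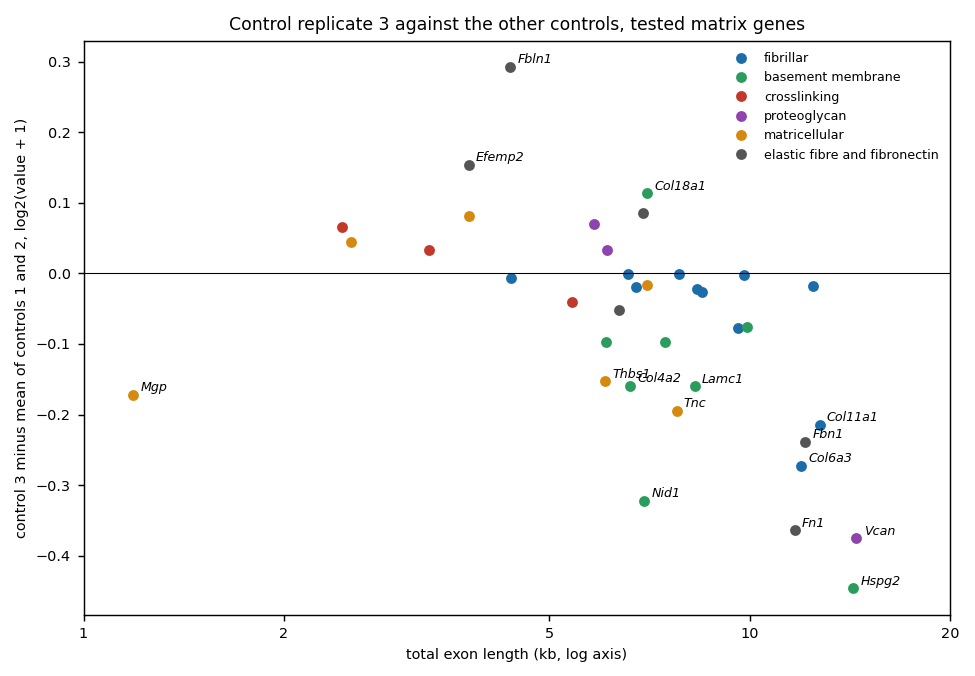
Control replicate 3 minus the mean of control replicates 1 and 2, on the log2(value + 1) scale, against total exon length in kb on a log axis, for the 37 tested matrix genes coloured by class. Hspg2, Vcan and Fn1, all among the longer genes, lie lowest, at -0.45, -0.38 and -0.36, while short genes lie near or above 0 except Mgp, a gene with few reads.

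The fibrillar class had the most tested genes, 11, and pools fibril-forming collagens with collagens that associate with fibrils or form networks and microfilaments. VC lay wholly above control in 4 of the 11 and wholly below in 3, against 13.9% and 11.6% of all tested genes. The 3 below were all fibril-forming collagens, and the 4 above were all of the other kinds. Collagen I is made of Col1a1 and Col1a2 chains and is the main fibrillar collagen of connective tissue. Col1a1 was at 680.4, 661 and 670.3 in the controls and at 625, 631 and 649 in VC. All 3 VC values were below all 3 controls, and the difference was -0.08 (SE 0.032, limma adjusted p = 0.278). Col1a2 was at 396, 386 and 386 against 378, 371 and 383, again without overlap, with a difference of -0.04. Col3a1, the collagen III chain that joins collagen I in pliable tissue, was at 88.4, 81.1 and 84.5 in control and 77.6, 68.8 and 79.6 in VC. VC replicate 2 was the lowest of the 6, the groups did not overlap, and the difference was -0.17 (SE 0.063, adjusted p = 0.245). It was -0.11 without VC replicate 2 and -0.10 with equal totals. The collagen V chains, which start fibrils and limit their width, overlapped between groups. Col5a1 averaged 104 ± 4.97 and 98.9 ± 2.66 (SD, n = 3), and Col5a2 was at 182, 184 and 173 against 170.4, 175 and 178. Col11a1, which has a like role in cartilage, was between 17.3 and 20.3, with control replicate 3 lowest, and its difference of 0.04 was -0.03 without that library.

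Within this class, 5 tested collagens associate with fibrils or form networks and microfilaments. VC lay wholly above control in 4 of them and overlapped it in 1, and none passed the test. Of all tested genes 13.9% lay above, or 25.8% with equal totals. This group is not one of the 6 classes, and its count was not tested. Col16a1, a fibril-associated collagen, was at 83.8, 81.4 and 81.5 in control and 89.1, 86.8 and 93.0 in VC. Every VC value was above every control, and the difference was 0.12 (SE 0.038, limma adjusted p = 0.182). Col8a1, a short-chain collagen of vessel walls and the cornea, was at 91.6, 86.1 and 88.8 against 94.8, 93.6 and 99.8, also without overlap (0.11, adjusted p = 0.236). Collagen VI forms beaded microfilaments next to basement membranes from 3 chains. Col6a1 was at 105.0, 100.2 and 102.1 in control and 106, 108 and 106 in VC, and Col6a2 at 42.0, 42.3 and 41.5 against 43.4, 42.8 and 45.1, both separated by narrow gaps. The differences were 0.06 for each, and that of Col6a2 was 0.04 without VC replicate 3. Col6a3 was between 30.8 and 38.5, lowest in control replicate 3, and its difference of 0.08 was -0.01 without that library. Col12a1, a fibril-associated collagen of tendon, stayed under the filter at 0.264 to 0.569. The median of all 11 tested genes of the fibrillar class was 0.04, and -0.03 without control replicate 3. Both medians were the values of Col11a1, and they describe the pooled class, not either kind of collagen in it. Without that library Col16a1, Col8a1, Col6a1 and Col6a2 stayed above 0, at 0.12, 0.11, 0.06 and 0.05.

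Ratios of chains within a library do not depend on scaling. The ratio of Col6a1 to Col6a2 was 2.44 ± 0.067 in control and 2.44 ± 0.085 in VC (SD, n = 3; two-sided exact permutation p = 1). The ratio of Col1a1 to Col1a2 was 1.72 ± 0.012 and 1.68 ± 0.024 (exact permutation p = 0.1, the smallest that 3 against 3 can give, and 0.2 when adjusted over 8 ratios). The pairs for these ratios were picked after the values were seen. Ratios between genes also depend on the annotated lengths, which merge all exons of a gene. That length is 12426 bases for Col1a2 and 6563 for Col1a1, and in control replicate 1 the recovered reads were 38091 for Col1a2 and 34584 for Col1a1.

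Collagen IV is the network former of basement membranes. Its main chains, Col4a1 and Col4a2, lie head to head on opposite strands, and their promoter windows are shown here because they overlap. Whether the pair shares regulation was not tested. The windows are from RefSeq on build GRCm38.p6, an earlier build than the GRCm39 named for the data, and run from 250 bases before to 50 bases after each annotated start. The Col4a1 window is chr8:11312777-11313076 on the minus strand and the Col4a2 window chr8:11312555-11312854 on the plus strand. The annotated starts are 21 bases apart, at 11312826 for Col4a1 and 11312805 for Col4a2, so the 5′ ends of the transcripts overlap. Each base held by both windows lies at or past the start of at least 1 gene. Capitals mark the 78 bases that both windows hold, each read 5′ to 3′ on its own strand.
Col4a1: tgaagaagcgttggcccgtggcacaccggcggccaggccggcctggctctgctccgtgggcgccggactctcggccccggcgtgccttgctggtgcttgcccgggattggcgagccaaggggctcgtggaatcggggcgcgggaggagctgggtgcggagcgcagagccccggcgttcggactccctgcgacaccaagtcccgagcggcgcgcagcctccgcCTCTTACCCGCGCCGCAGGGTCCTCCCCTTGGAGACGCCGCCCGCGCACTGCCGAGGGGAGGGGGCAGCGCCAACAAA
Col4a2: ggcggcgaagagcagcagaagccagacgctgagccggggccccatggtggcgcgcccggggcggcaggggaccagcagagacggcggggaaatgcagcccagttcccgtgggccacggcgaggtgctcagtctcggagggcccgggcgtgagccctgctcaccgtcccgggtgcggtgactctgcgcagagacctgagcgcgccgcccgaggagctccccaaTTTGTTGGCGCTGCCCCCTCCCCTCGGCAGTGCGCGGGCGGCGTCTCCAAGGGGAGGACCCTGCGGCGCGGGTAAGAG
Both windows hold the letters CCAAT on either strand, as do 37.4% of the 32851 windows in the table, so this is a description of the letters only. Of the 47 genes, 31 have a window there.

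The collagen IV pair had near-equal levels. Col4a1 was at 260.3, 256 and 241 in control and 232, 245 and 246 in VC. Col4a2 was at 240.3, 235 and 213 against 217, 224 and 234. The groups overlapped in both genes, with the lowest values in control replicate 3 for Col4a2 and VC replicate 1 for Col4a1. Their ratio stayed between 1.05 and 1.14 in the 6 libraries (exact permutation p = 0.2 between groups, 0.32 adjusted over the 8 ratios). The differences were -0.07 and -0.02, and both turned above 0 with equal totals, to 0.0047 and 0.05. Without control replicate 3 they were -0.10 and -0.08, and VC then lay below control in both genes.

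Laminins are heterotrimers of an alpha, a beta and a gamma chain, and the alpha chain carries the main sites for cell receptors. The TM4 libraries held beta and gamma chains with hardly any alpha chain. Lamb1 was at 156, 152 and 146 in control and 154, 157 and 156 in VC, Lamb2 between 52.2 and 58.7, and Lamc1 between 113 and 129. Lama1 and Lama4 were listed at 0 in all 6 libraries, which allows a level of up to 0.040 for Lama1 and 0.032 for Lama4, from 3 reads. Lama5 was between 0.091 and 0.225, on 8 to 21 reads. Of the alpha chains outside the 47 genes, Lama2 was at 0.055 or less and Lama3 at 0.266 to 0.451. The 5 alpha chains thus summed to 0.412 to 0.623 in a library, where the 3 beta chains summed to 199 to 216 and the 3 gamma chains to 141 to 155. Values at 0 cover counting error only and do not show that a transcript is absent from other annotations.

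Several other basement membrane genes had their lowest value in control replicate 3. Hspg2 encodes perlecan, the large heparan sulfate proteoglycan of the basement membrane. It was at 130.9, 131 and 95.9 in control and 126, 133 and 134 in VC, so that 1 control stood far below the other 5 libraries. Its difference of 0.15 (SE 0.12) was 0.00016 without that control. Nid1, a nidogen that ties laminin to collagen IV, was at 33.0, 31.1 and 25.4 against 32.4, 31.9 and 34.1, and its difference went from 0.14 to 0.03 in the same way. Lamc1 had a difference of 0.02, or -0.03 without that library. Col18a1, whose cleavage gives endostatin, was low at 1.65 to 2.30. Nid2 was at 0.048 to 0.372 and Col15a1 at 0 throughout. In this class 0 of 8 tested genes had groups that did not overlap, where 25.55% of all tested genes had such groups. The class median was 0.03, or -0.02 without control replicate 3. With equal totals VC lay above control in Lamb1 and Nid1, as in 25.8% of all tested genes. Without control replicate 3 it lay below in Col4a1 and Col4a2, as in 17.3% of all tested genes.

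Serpinh1 had the smallest adjusted p of the 37. It encodes Hsp47, the collagen-specific chaperone of the endoplasmic reticulum, and it was the most abundant of the 47 transcripts per length. Its values were 1126, 1111 and 1171 in control and 987, 983 and 1013 in VC. The groups were separated by a gap wider than the range of VC, and the VC mean was 87.6% of the control mean. The difference was -0.19 (SE 0.036, 95% interval -0.28 to -0.11, limma adjusted p = 0.0733), short of the threshold. In limma-voom it was -0.17 and passed (adjusted p = 0.0176). After quantile normalization it was -0.07 (adjusted p = 0.258), and over all 13 alternatives the adjusted p ran from 0.0176 to 0.258. Set against Col1a1 within each library, which does not depend on scaling, the ratio of Serpinh1 was 1.65, 1.68 and 1.75 in control and 1.58, 1.56 and 1.56 in VC (exact permutation p = 0.1, adjusted 0.2). That pair too was picked after the values were seen, and the test can give no smaller p.

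Lysyl oxidases crosslink collagen and elastin, and the tested ones of the crosslinking class, Loxl1 and Loxl2, showed no such separation. Loxl1 was at 95.4, 91.0 and 95.4 in control and 87.4, 85.2 and 93.9 in VC, where VC replicate 3 reached into the control range. Loxl2 was at 50.5, 45.1 and 46.3 against 44.9, 44.4 and 48.1, with overlap. Lox itself was nearly missing, with 0 to 3 reads per library, so the family was carried here by its other members. Loxl3 and Loxl4 are outside this class, among the collagen-modifying enzymes below. Loxl3 was at 21.0, 22.9 and 21.1 in control and 23.1, 25.0 and 25.0 in VC. Its VC values were all above the controls (0.16, SE 0.055, limma adjusted p = 0.217). Loxl4 overlapped between groups, with a difference of 0.04. All 3 tested genes of the crosslinking class, which were Serpinh1, Loxl1 and Loxl2, had differences below 0. Their median was -0.08, or -0.0084 with equal totals.

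**Figure D3:**
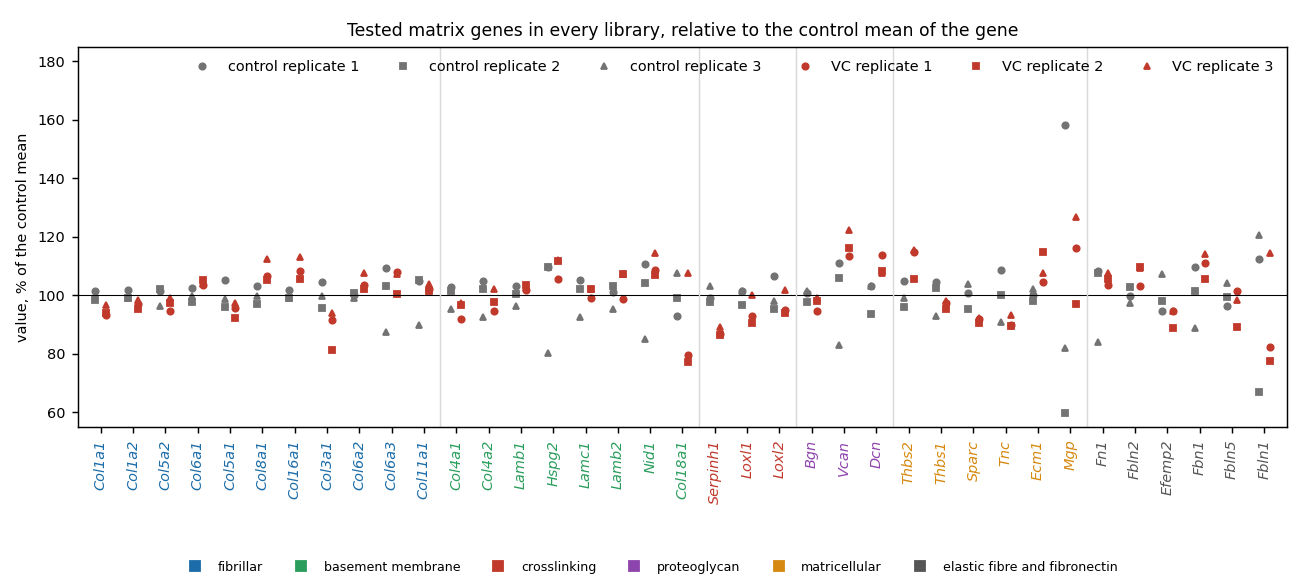
Value of each tested matrix gene in every library as a percentage of that gene's control mean, with controls in grey and VC in red and a symbol for each replicate. Most points lie close to 100%; Serpinh1 in VC sits below its controls, and control replicate 3 (grey triangles) sits lowest of the 6 in Hspg2, Vcan, Fn1 and Nid1.

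Among proteoglycans the groups parted in Dcn and Vcan and not in Bgn, where they parted in 25.55% of all tested genes. Bgn, biglycan, is a small leucine-rich proteoglycan that binds collagen, and it was at 560.3, 543 and 565 against 527, 546 and 551. Dcn, decorin, which binds fibrils and growth factors, was at 19.0, 17.3 and 19.1 in control and 21.0, 19.98 and 19.9 in VC. Its VC values were all above the controls, with a difference of 0.13 (SE 0.056, limma adjusted p = 0.296), or 0.09 without control replicate 2. Vcan, versican, a large chondroitin sulfate proteoglycan of loose matrix, was at 54.99, 52.4 and 41.2 against 56.2, 57.6 and 60.7. It had the largest difference of the 37 (0.24, SE 0.10, adjusted p = 0.305), which was 0.11 without control replicate 3, and the groups still did not overlap. Lum, lumican, had 1 read in 1 library and none in the others. The class median was 0.13.

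The matricellular genes divided. VC lay wholly above control in 2 of the 6 tested genes and wholly below in 1, against 13.9% and 11.6% of all tested genes. Thbs2, thrombospondin 2, restrains vessel growth and shapes fibrils, and it was the third most abundant of the 47 genes. It was at 660.0, 604 and 624 in control and 723, 665 and 726 in VC. VC replicate 2 lay just above the highest control, and the difference was 0.16 (SE 0.051, limma adjusted p = 0.186, and 0.0284 in limma-voom). Thbs1, its paralog and an activator of latent TGF-beta, was at 374, 366 and 333 against 348, 342 and 351, and overlapped through control replicate 3. Its difference of -0.04 was -0.09 without that library, with VC then below control. The ratio of Thbs2 to Thbs1 was 1.76 ± 0.11 in control and 2.03 ± 0.073 in VC, with no overlap (exact permutation p = 0.1, adjusted 0.2). This pair was picked after the values were seen and the test can give no smaller p, so the ratio is a description only. Reads that both paralogs could share were not examined.

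Sparc, osteonectin, a collagen-binding protein that aids procollagen handling, was at 269, 254 and 277 in control and 245, 241 and 246 in VC. The VC values were tightly grouped below all controls, with a difference of -0.13 (SE 0.040, limma adjusted p = 0.185). Tnc, tenascin C, a protein of remodelling tissue, was at 88.9, 81.8 and 74.4 against 73.3, 73.1 and 76.3, and overlapped through control replicate 3. Without that library its difference went from -0.13 to -0.20. Ecm1, extracellular matrix protein 1, was at 58.2, 57.0 and 59.4 against 60.8, 66.7 and 62.7, with VC above throughout (0.12, adjusted p = 0.236). Mgp, matrix Gla protein, which restrains calcification, was at 0.742 to 1.96, and Postn, periostin, at 0.671 to 1.21 and was not tested. The class median of 0.04 became -0.02 without control replicate 2.

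Among fibronectin and the elastic fibre genes the groups did not overlap in Fbln2 and overlapped in the other 5 tested genes. Of all tested genes 25.55% had groups that did not overlap. Fn1, fibronectin, the scaffold on which collagen is laid down, was at 1009, 999.8 and 780.2 in control and 963, 982 and 999.7 in VC. Only control replicate 3 was far from the others, and the difference of 0.09 (SE 0.098) was -0.03 without it. Fbn1, fibrillin 1, which forms the microfibrils of elastic fibres, was at 24.2, 22.4 and 19.6 against 24.5, 23.3 and 25.2, with overlap and a difference of 0.14, or 0.06 without control replicate 3. Elastin itself was almost unread, with 0 to 4 reads of Eln per library. Fbln2, fibulin 2, which binds fibronectin and basement membranes, was at 429, 442 and 419.6 in control and 444, 472 and 471 in VC, just separated (0.10, SE 0.039, limma adjusted p = 0.243). Efemp2, fibulin 4, which brings lysyl oxidase to elastin, was at 75.9, 78.8 and 86.1 against 76.1, 71.4 and 76.0, with overlap (-0.10, adjusted p = 0.384). Fbln5 averaged 12.7 ± 0.52 and 12.2 ± 0.80, and Fbln1 was at 1.18 to 2.12 (SD, n = 3).

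**Figure D4:**
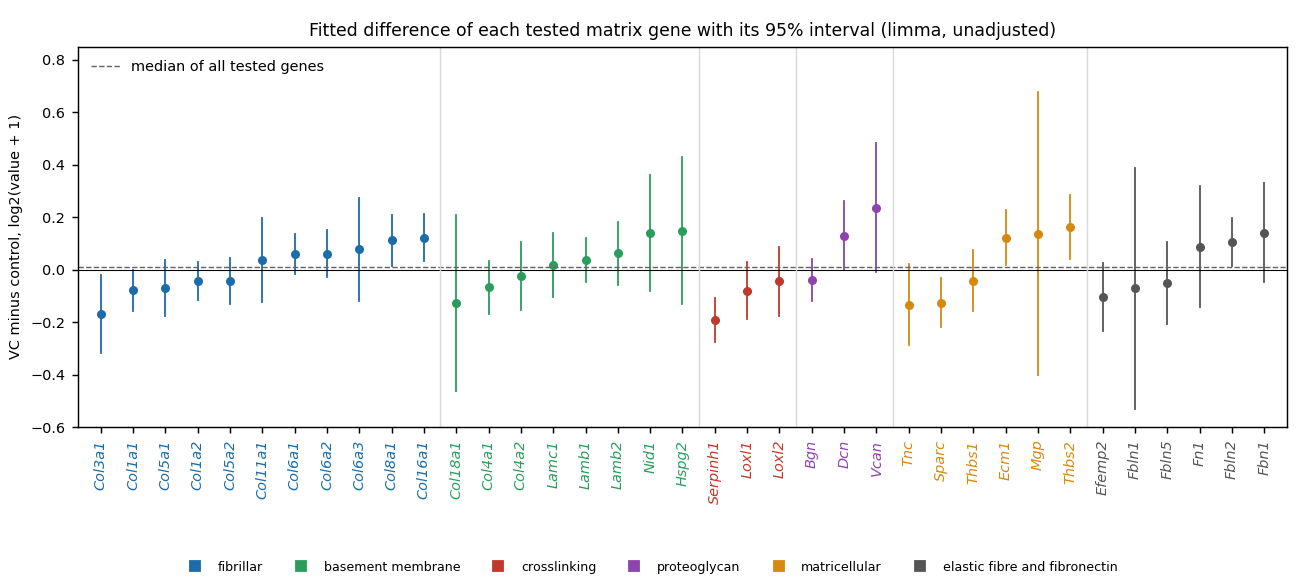
Fitted VC minus control difference of each of the 37 tested matrix genes on the log2(value + 1) scale, with its unadjusted 95% limma interval, coloured by class. The dashed line is the median of all tested genes at 0.01; intervals of 5 genes lie above 0 and of 4 below, the widest belong to Mgp and Fbln1, and no gene passed after adjustment over all genes.

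In the lists of collagen-modifying enzymes, procollagen secretion, matrix receptors and other matrix proteins, 3 genes passed the test, all lower in VC. Of all tested genes 0.687% passed, higher or lower. Of 27 collagen-modifying enzymes 25 were tested and 2 fell. P4ha1, a catalytic subunit of prolyl 4-hydroxylase, fell from 134.8, 129 and 136 to 106.9, 98.6 and 105 (-0.36, SE 0.044, limma adjusted p = 0.0293). Crtap, a partner of prolyl 3-hydroxylase, fell from 124, 129.8 and 137 to 103, 102 and 102 (-0.34, SE 0.042, adjusted p = 0.0306). The median of this list was -0.06, as for 16 genes of procollagen secretion, of which 0 passed. Of 27 tested genes for other matrix proteins, Ccn2, a matricellular growth factor, fell from 381 ± 8.62 to 311 ± 7.81 (-0.29, SE 0.035, adjusted p = 0.0293). None of 21 tested integrins and other matrix receptors passed. Each of the 3 calls was lost in 7 or 8 of 13 alternatives, with adjusted p up to 0.162, and their differences stayed between -0.39 and -0.22.

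Markers of other cell types were read beside these results. Of 15 Sertoli genes 8 were tested and 0 passed, with a median difference of 0.17 where all tested genes had 0.01. The defining genes Wt1, Fshr, Dmrt1 and Shbg were at 0 in every library. Gata4, the only one of the 8 given by value here, averaged 19.2 ± 0.63 in control and 21.8 ± 0.44 in VC (SD, n = 3). The list's summed level was 55.1 to 58.6 in control and 61.8 to 64.3 in VC. Of 8 peritubular myoid and smooth muscle genes, none at 0 throughout, 6 were tested and 3 fell (Acta2 by 0.68, Myl9 by 0.68 and Actg2 by 0.53 on the log2 scale, limma adjusted p = 0.0111, 0.0111 and 0.0348), and the list's summed level was 1083 to 1184 in control and 720 to 738 in VC. These calls held in 8, 7 and 6 of 13 alternatives, with adjusted p up to 0.155. In the fit that gave them, 0.687% of all tested genes passed, higher or lower. The part of this list in the matrix values was not tested, and in bulk RNA fewer cells of a type and less RNA per cell cannot be told apart. Fibroblast genes (4 of 8 tested, 0 passed; Tcf21 at 0) summed to 102 to 105 and 96.5 to 102. The Leydig list (1 of 8 tested) summed to 2.34 to 3.38 and 2.74 to 3.53, with Hsd3b1, Lhcgr and Hsd17b3 at 0. The germ cell list (2 of 11) summed to 2.06 to 3.37 and 3.34 to 4.27, with Ddx4, Tnp1, Zbtb16, Kit and Acr at 0. The macrophage list (2 of 8) summed to 55.7 to 65.9 and 61.1 to 71.3, with Adgre1 at 0, and the endothelial list (3 of 8) to 41.5 to 45.6 and 44.9 to 50.1. In the Leydig, germ cell, macrophage and endothelial lists 0 genes passed.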

How the data were processed

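RNA from 6 TM4 samples was extracted with Trizol and sequenced from TruSeq libraries, per the labels' protocols; the submitters' processing notes name HISAT2 and build GRCm39. For the read counter and gene annotation, the authors' choice is not given in the sources used here. Per gene and library the authors deposited a normalized signal, never below 0, with column totals of 966031 to 1058206, and the table's name points to TMM scaling by the authors. Symbols and merged exon lengths came from GENCODE M21 on GRCm38 (52081 and 52133 of 55414 identifiers), so no coordinates of the data are given. Value times length gave whole multiples of 1 read for 98.7% to 98.9% of values (within 0.1 read, up to 1000 reads), and these recovered reads served for depth and 1 alternative.

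Genes at 1 or more in at least 3 libraries were fitted on log2(value + 1) in limma 3.58.1 (R 4.3.3), with trended empirical Bayes and no replicate block. Tests were two-sided, with Benjamini-Hochberg over 13972 genes and a threshold of 0.05. The procedure was tested on simulated 2-fold changes, without a library that deviates with exon length. That test does not cover the smaller differences of the 47 genes. The rule names 5 classes; fibronectin and elastic fibre genes formed a sixth. Named in full were genes past the threshold, those whose groups did not overlap and the 3 most abundant of each class; other genes appear by range or mean, or with all values where 1 library stood apart. Limits at 0 use 3 reads. Of the genes outside the 47, 1 result is not reported here. The members and lists were chosen with earlier results of these data known. Tables used Python 3.11.15, pandas 2.3.3 and scipy 1.17.1, and figures matplotlib 3.10.9. Alternatives changed the pseudocount, filter, scaling, model, block and libraries; counts of separated groups under 2 of them were added after seeing the data.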

Additional observations from a re-analysis of the deposited data

How the results depend on the processing

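All 37 matrix genes stayed short of the threshold in 12 of 13 alternatives, and limma-voom called 2. Over all genes the 96 calls became 30 without a filter, 217 with equal totals, 604 in limma-voom, 0 with the replicate block, and 0 to 83 when 1 library was left out (83 without control replicate 3 and at most 1 without any other). Same-numbered samples did not deviate together (correlations -0.019 to 0.0051), and not every sample correlated best with its own number, so the numbers were not taken as pairs. Pseudocounts and limma-voom changed no sign among the 37. Leaving out the filter or adding the block gives each gene the same difference as the main fit, so no sign could change there. Of the 37, 21 kept their sign under all 13, those included, and 16 did not, none with a main difference over 0.14. With equal totals the calls split into 182 higher and 35 lower, against 60 and 36. The median over the 37 was then 0.091, and by class 0.106 (fibrillar), 0.10 (basement membrane), -0.0084 (crosslinking), 0.199 (proteoglycan), 0.103 (matricellular) and 0.088 (elastic fibre and fibronectin), where all genes had 0.08. This turned Col1a2 (0.028), Col5a1 (0.0012), Col5a2 (0.0296), Col4a1 (0.0047), Col4a2 (0.048), Loxl2 (0.027), Bgn (0.0335), Thbs1 (0.0303) and Fbln5 (0.016) above 0. Quantile normalization gave a median of 0.051 and turned Col1a1 (0.0081), Col1a2 (0.0217), Col5a2 (0.0020), Col4a2 (0.038), Bgn (0.063) and Thbs1 (0.0203). With 1 library left out, the median ran from -0.028 (control replicate 3) to 0.056 (control replicate 1), the fibrillar median from -0.034 to 0.063, the proteoglycan median from 0.086 to 0.152 and the matricellular median from -0.025 to 0.057. Signs turned within these ranges for Col11a1 (-0.034 to 0.074), Col6a3 (-0.014 to 0.143), Col4a2 (-0.077 to 0.011), Lamc1 (-0.035 to 0.056), Loxl2 (-0.079 to 0.0029), Mgp (-0.026 to 0.356), Fn1 (-0.033 to 0.152) and Fbln1 (-0.233 to 0.026). The cause was not tested. Few reads limit Mgp, Fbln1 and Col18a1 among tested genes.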
